A study of Rattus norvegicus with 20 samples.

Results

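The endoplasmic reticulum (ER) chaperones and stress genes described here are Hspa5, Hsp90b1, Pdia4, Calr, Dnajb9, Sdf2l1, Manf, Hyou1, Creld2 and Herpud1. They were taken by gene symbol as known targets of the unfolded protein response and were matched between the 2 deposited tables by Ensembl identifier. All 10 were found in both tables, among 32545 genes in the cyclosporine A table and 32883 in the tacrolimus table, and all 10 passed the filter on low values in each.

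Secreted and membrane proteins are folded in the ER by chaperones, lectins and disulfide isomerases. When unfolded protein builds up there, the sensors ATF6, IRE1 (encoded by Ern1) and PERK (encoded by Eif2ak3) start the unfolded protein response. ATF6 and the spliced form of XBP1 then bind the promoters of chaperone genes, and PERK raises the translation of ATF4, which controls amino acid synthesis genes and Ddit3. Kidney tubule cells carry a heavy load of membrane transporters, and calcineurin inhibitors are among the drugs for which ER stress in these cells has been studied.

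The study compared 2 calcineurin inhibitors, immunosuppressants used in transplantation, in whole kidneys of male Wistar rats aged 10 to 12 weeks, by bulk RNA sequencing. Cyclosporine A was dosed towards a trough stated as 3 mg/ml (4 libraries, set against 4 of saline). Tacrolimus was dosed towards 3.5 ng/ml (6 libraries) and its vehicle, DMSO at 25% with PEG500 at 75%, gave 6 more. Drug or vehicle was given by an osmotic minipump under the skin for 28 days. Each drug therefore has a vehicle and a deposited table of its own, and nothing in the labels names a genotype or further treatment. The labels number the replicates without saying that each is a separate animal, so p-values measure only the spread between these samples.

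Promoter letters are shown for the 6 members whose window held an exact ER stress response element, the sequence that ATF6 and XBP1 are known to use. The windows are RefSeq's, on build GRCr8, from 250 bases before to 50 bases after each annotated start, and 9 of the 10 members had one (Manf had none). Both strands were searched for ERSE (CCAAT, 9 bases of any kind, CCACG), for ERSE-II (ATTGG, 1 base of any kind, CCACG) and for the core of the unfolded protein response element, TGACGTG. Each stretch is printed 5′ to 3′ on the strand of its gene with 20 bases on either side of the outermost matches, or fewer at the edge of the window, and capitals mark the matched letters.
Hspa5: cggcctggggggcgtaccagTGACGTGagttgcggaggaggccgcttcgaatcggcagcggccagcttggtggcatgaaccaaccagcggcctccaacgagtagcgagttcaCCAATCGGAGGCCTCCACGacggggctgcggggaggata
Hsp90b1: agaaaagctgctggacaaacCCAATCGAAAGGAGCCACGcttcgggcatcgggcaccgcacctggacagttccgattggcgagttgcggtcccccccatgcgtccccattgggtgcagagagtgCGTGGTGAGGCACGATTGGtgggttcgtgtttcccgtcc
Calr: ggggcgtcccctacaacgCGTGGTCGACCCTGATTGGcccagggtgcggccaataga
Hyou1: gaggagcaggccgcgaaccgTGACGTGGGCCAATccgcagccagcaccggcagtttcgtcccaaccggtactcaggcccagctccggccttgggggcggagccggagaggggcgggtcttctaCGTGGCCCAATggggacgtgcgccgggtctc
Creld2: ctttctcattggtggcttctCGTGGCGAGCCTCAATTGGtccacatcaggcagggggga
Herpud1: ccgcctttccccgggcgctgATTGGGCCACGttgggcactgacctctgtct

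The Hspa5 stretch lies at chr3:38452861-38453011 on the plus strand, with TGACGTG at −135 to −129 and ERSE at −43 to −25 from the start. Hsp90b1 (chr7:23012327-23012489, minus strand) held ERSE at −176 to −158 and again, on the opposite strand, at −72 to −54. Calr (chr19:40213117-40213173, plus strand) and Creld2 (chr7:121789219-121789277, plus strand) held ERSE on the opposite strand, at −232 to −214 and at −145 to −127. Hyou1 (chr8:53602671-53602824, plus strand) held ERSE-II on the opposite strand at −188 to −178 and −88 to −78, and TGACGTG at −191 to −185 overlapping the first of these. Herpud1 (chr19:10614801-10614851, minus strand) held ERSE-II at −124 to −114. No exact match of these motifs was found in the windows of Pdia4, Dnajb9 and Sdf2l1.

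The matches place these promoters in a small class. Of 33469 RefSeq windows of the same 300 bases, 22 (0.0657%) held ERSE, 17 (0.0508%) held ERSE-II and 39 (0.117%) held either, 6 of them the members above. TGACGTG is common, in 605 windows (1.81%). Among the genes of the other ER lists summarized below, not all of them named there, Xbp1, Ero1b, Canx, Dnajc3 and Derl3 held ERSE and Dnajb11 held ERSE-II. A match is a description of letters and not a measured binding site.

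Library depth was similar within each table, but the source of the fragments was not. A library of the cyclosporine A table held 30468741 to 34308785 gene-assigned fragments, and a library of tacrolimus or its vehicle 31670202 to 39358485. Mitochondrial genes took 49.7% to 68.6% of them with saline and 80.2% to 90.8% with cyclosporine A, which left 10283947 to 17256634 and 2905822 to 6549239 nuclear fragments. In the tacrolimus table their share was 10.5% to 15.9%. Values of the cyclosporine A table are therefore given as rescaled FPKM (fragments per kilobase of gene, scaled to library size, here divided by a factor per library that evens out the median ratio of nuclear genes), with the deposited FPKM beside the results. All 12 nephron segment markers were detected in the tacrolimus table, from 10.3 FPKM (Nphs1) upwards. In the cyclosporine A table the sodium-glucose transporter Slc5a2, a marker of the early proximal tubule, read 0.110 to 1.86 rescaled FPKM over the 8 libraries, and the podocyte marker Nphs1 read 0.137 to 0.888. Both markers were thus low in all 8 libraries, although the label is the whole kidney.

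The 10 genes cover a wide range of expression per unit of gene length. In the DMSO/PEG vehicle libraries (mean ± SD, n = 6), Calr read 416 ± 48.9 FPKM, Hspa5 264 ± 87.4, Hsp90b1 169.6 ± 28.0, Herpud1 139.6 ± 32.5 and Manf 95.0 ± 38.7. Pdia4 read 47.6 ± 11.4, Hyou1 29.3 ± 6.67, Creld2 27.9 ± 8.27, Sdf2l1 22.5 ± 7.25 and Dnajb9 20.3 ± 2.58. Every gene's range overlapped that of the next gene in this order. Part of that came from DMSO/PEG replicate 3, described below: over the other 5 libraries Calr (378 to 423) lay above Hspa5 (178 to 278), Manf (63.6 to 98.8) above Pdia4 (37.1 to 49.6), and Pdia4 above Hyou1 (22.9 to 30.0). Levels are compared within a table only, because the tables were scaled separately.

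Cyclosporine A against saline asked whether the drug moved these genes. On rescaled FPKM none of the 10 passed the test (limma, Benjamini-Hochberg adjusted p under 0.05 over all genes), where 0.609% of the 13454 genes tested did. Lower readings were nevertheless the rule among the members: 9 of 10 log2 fold changes were below 0 (49.9% of all genes), and their median was −0.35 against 0.00055 over all genes. At an unadjusted p under 0.05, 6 of 10 were lower (8.83% of all genes) and 0 were higher (7.32%). For Hsp90b1, Calr, Hyou1 and Herpud1 every cyclosporine A library lay below every saline library, a pattern shown by 6.06% of all genes. Voom with sample quality weights on the recovered fragments called 1 member, Hyou1 (−0.65, limma adjusted p = 0.0377), among 281 genes in all.

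Hspa5 encodes BiP, the ER member of the HSP70 family, which also holds the sensors inactive (chromosome 3, 13838304 to 13842762, on rn6 as deposited). It read 40.6, 38.8, 40.2 and 46.7 rescaled FPKM in saline replicates 1 to 4, and 39.2, 36.7, 26.1 and 29.3 in cyclosporine A replicates 1 to 4. Cyclosporine A replicate 1 reached into the saline range, and replicates 3 and 4 were the lowest of the 8. The log2 fold change was −0.35 with a standard error of 0.14 (95% interval −0.66 to −0.04, unadjusted p = 0.0304, adjusted p = 0.254).

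Hsp90b1 encodes GRP94, the ER member of the HSP90 family (chromosome 7, 27226569 to 27240533). It read 30.5, 30.2, 31.3 and 37.0 rescaled FPKM with saline and 28.2, 27.2, 21.8 and 22.5 with cyclosporine A. The groups did not overlap, and saline replicate 4 stood above the other saline libraries. The log2 fold change was −0.37 (interval −0.63 to −0.10, unadjusted p = 0.0118, adjusted p = 0.173). Hyou1 encodes GRP170, a large chaperone that also exchanges the nucleotide of BiP (chromosome 8, 48699769 to 48711910). It read 3.73, 3.27, 3.06 and 3.44 with saline and 2.47, 2.10, 2.13 and 1.82 with cyclosporine A, with no overlap. Its log2 fold change of −0.49 (interval −0.76 to −0.21) had the smallest unadjusted p of the 10, 0.00293, and an adjusted p of 0.0998.

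Calr encodes calreticulin, the soluble lectin chaperone and calcium store of the ER (chromosome 19, 25956771 to 25961666). It read 93.2, 82.2, 83.0 and 97.5 rescaled FPKM with saline and 70.5, 78.3, 70.5 and 58.3 with cyclosporine A, again with no overlap, for a log2 fold change of −0.36 (interval −0.61 to −0.10, unadjusted p = 0.0109, adjusted p = 0.168). Herpud1 encodes a membrane protein of ER-associated degradation (chromosome 19, 11046909 to 11057254). It read 27.2, 35.1, 26.6 and 27.4 with saline and 21.3, 21.8, 22.5 and 16.7 with cyclosporine A. Saline replicate 2 was high and cyclosporine A replicate 4 low, and the groups did not overlap (log2 fold change −0.48, interval −0.77 to −0.19, unadjusted p = 0.00449, adjusted p = 0.122).

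Sdf2l1, a partner of BiP in the DnaJ complexes of the ER (chromosome 11, 88122271 to 88124513), had the lowest log2 fold change, −0.70. It read 5.96, 3.67, 6.62 and 7.98 rescaled FPKM with saline and 2.80, 4.60, 2.46 and 3.37 with cyclosporine A. Saline replicate 2 lay inside the cyclosporine A range and the other 3 saline libraries lay above it. The interval was −1.19 to −0.21 (unadjusted p = 0.0102, adjusted p = 0.164). Creld2, an ER-resident protein with disulfide-rich domains (chromosome 7, 129812789 to 129819634), read 8.05, 8.59, 7.91 and 8.44 with saline and 6.97, 8.84, 5.06 and 4.84 with cyclosporine A. Its saline libraries were close together, and cyclosporine A replicate 2 lay above all of them (log2 fold change −0.35, interval −0.72 to 0.03, adjusted p = 0.342).

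The other 3 members differed by less than the spread between replicates. Pdia4, a protein disulfide isomerase (chromosome 4, 77470636 to 77489535), read 7.75, 6.41, 7.66 and 8.77 with saline and 8.76, 8.95, 6.16 and 7.22 with cyclosporine A, a log2 fold change of 0.01 (interval −0.30 to 0.33). Manf, a secreted and ER-resident neurotrophic factor (chromosome 8, 115623178 to 115626380), read 21.9, 21.6, 26.7 and 27.8 with saline and 29.5, 23.2, 23.8 and 19.7 with cyclosporine A, a log2 fold change of −0.03 (interval −0.34 to 0.28). The groups of both genes overlapped widely, and their intervals reach to either side of 0. Dnajb9 encodes ERdj4, a BiP co-chaperone that restrains IRE1 (chromosome 6, 64165913 to 64170151 in the tacrolimus table). It read 3.88, 5.25, 5.09 and 4.09 with saline and 5.19, 5.68, 4.59 and 2.48 with cyclosporine A, where replicate 4 was low (log2 fold change −0.06, interval −0.52 to 0.40).

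**Figure D1:**
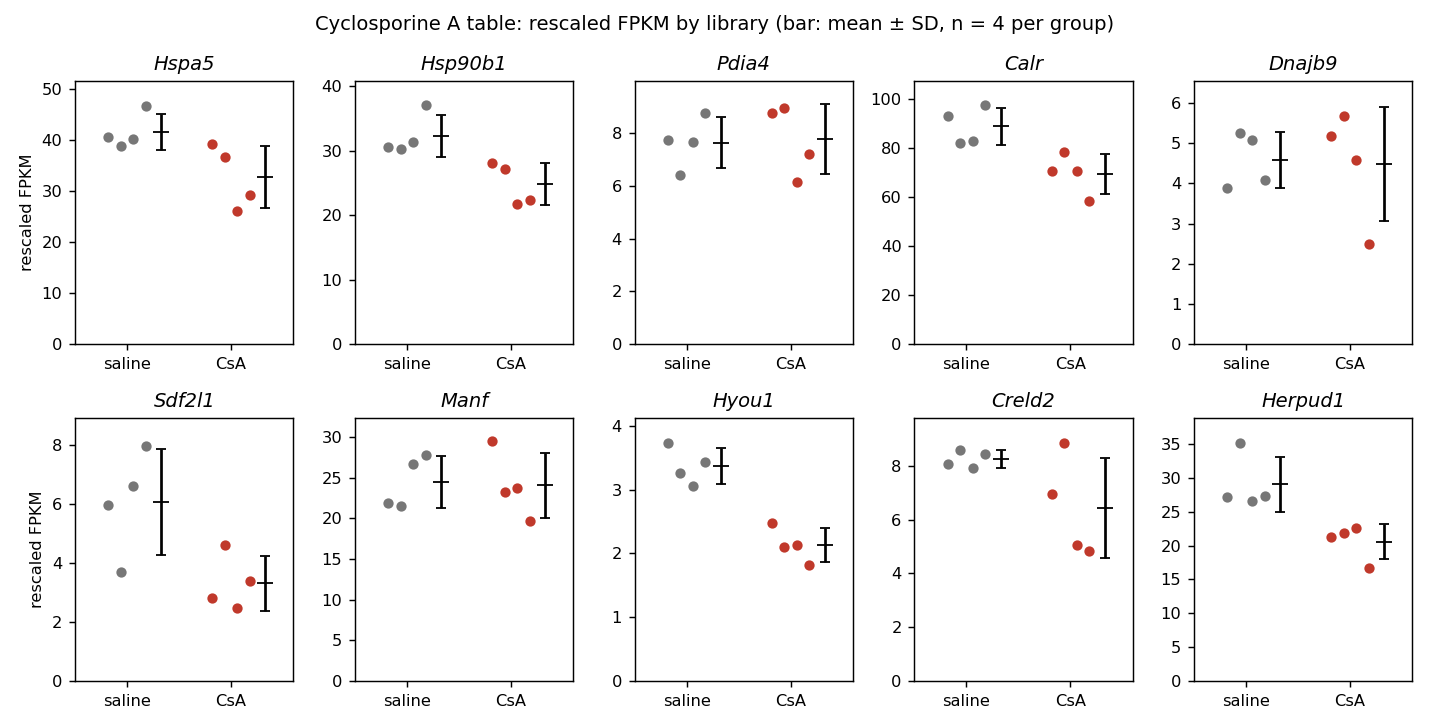
Rescaled FPKM (vertical axes from 0) of the 10 genes in each library of the cyclosporine A table, saline in grey and cyclosporine A in red, with points in replicate order and bars at the mean ± SD (n = 4 per group). The groups are apart for Hsp90b1, Calr, Hyou1 and Herpud1 and overlap for the other 6 genes.

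The scaling set the size of this comparison. On FPKM as deposited all 10 members fell and were called, by log2 fold changes from −1.11 (Dnajb9) to −1.76 (Sdf2l1), but 80.9% of all genes were called lower there. All 10 had groups that did not overlap, as did 67.9% of all genes in that direction. The members' median was −1.57 and that of all genes −0.89, beside the higher mitochondrial share of the cyclosporine A libraries. These medians are not alike in kind, because the pseudocount of 1 understates changes of low genes. Pdia4 and Manf, at 0.01 and −0.03 on rescaled FPKM, read −1.16 and −1.31 as deposited. Hspa5, for example, read 80.9, 48.5, 60.8 and 79.4 deposited FPKM with saline and 24.2, 29.9, 19.2 and 12.4 with cyclosporine A (log2 fold change −1.64, adjusted p = 0.000646). With the mitochondrial share of each library as a covariate on rescaled FPKM, the members' median was −0.10, 0 members reached an unadjusted p under 0.05, and 4 members (Calr, Dnajb9, Manf and Pdia4) had values above 0. Over all 13454 genes 416 reached that threshold with the covariate and 2173 without it, so few of any 10 genes would. That share does not overlap between saline and cyclosporine A, so such a fit has little to tell share and drug apart. In bulk tissue fewer cells of a type and less RNA per cell cannot be told apart.

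Tacrolimus against DMSO/PEG vehicle put the same question to the other drug. None of the 10 members passed the test, where 0.303% of the 15493 genes tested did, and voom called 0 as well. Their log2 fold changes had a median of −0.20 (all genes −0.00033), with 9 of 10 below 0 (50.2% of all genes). At an unadjusted p under 0.05, 3 of 10 were lower (4.87% of all genes) and 0 higher (3.7%). The groups overlapped for all 10, as they did for all but 0.975% of genes. Without DMSO/PEG replicate 3 the median was −0.082 and 7 of 10 were below 0, while Calr, Hsp90b1 and Sdf2l1 had an unadjusted p under 0.05 with and without it and 0 were called. Over all genes 1794 reached that threshold without it and 1329 with it.

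The 3 members at an unadjusted p under 0.05 were Calr, Hsp90b1 and Sdf2l1. Calr had a lowest, median and highest value of 378, 406 and 509 FPKM with vehicle and 315, 363 and 380.2 with tacrolimus. Only 1 tacrolimus library, at 380.2, reached into the vehicle range (log2 fold change −0.21, interval −0.38 to −0.05, unadjusted p = 0.0170, adjusted p = 0.422). Sdf2l1 read 17.4, 20.1 and 36.7 with vehicle and 12.6, 15.9 and 18.2 with tacrolimus, for a log2 fold change of −0.43 (interval −0.76 to −0.09, adjusted p = 0.421). Without DMSO/PEG replicate 3 the Sdf2l1 value was −0.28. Its tacrolimus libraries 1 and 5, both at 18.2, lay above DMSO/PEG replicates 4 and 5. Hsp90b1 read 142, 163 and 221 with vehicle and 124, 146 and 157 with tacrolimus (log2 fold change −0.25, interval −0.46 to −0.03, adjusted p = 0.465).

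For the remaining 7 members the vehicle range enclosed most or all of the tacrolimus libraries. Hspa5 ran over 178, 258 and 420.5 FPKM (lowest, median, highest) with vehicle and 184, 215 and 235 with tacrolimus (log2 fold change −0.26, interval −0.64 to 0.11, adjusted p = 0.742). Without DMSO/PEG replicate 3 the Hspa5 value was −0.12. Manf read 63.6, 85.3 and 169 with vehicle and 74.4, 80.8 and 87.1 with tacrolimus, and Pdia4 37.1, 45.6 and 68.4 against 41.1, 44.8 and 46.9. Their log2 fold changes of −0.15 and −0.07 became 0.032 and 0.037 without that library. Creld2 read 20.4, 26.5 and 42.9 against 18.5, 23.2 and 26.2, a log2 fold change of −0.22 (interval −0.55 to 0.12) that was −0.086 without it.

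Hyou1 and the co-chaperone and degradation genes complete the comparison. Hyou1 read 22.9, 27.5 and 42.0 FPKM with vehicle and 22.8, 25.3 and 27.7 with tacrolimus (log2 fold change −0.18, interval −0.44 to 0.07). Herpud1 spread over 90.8, 154 and 166 with vehicle and 113, 124 and 161 with tacrolimus (−0.08, interval −0.40 to 0.24). Dnajb9 was the 1 member above 0, with 16.4, 20.2 and 24.4 against 19.2, 21.7 and 26.9 (0.11, interval −0.09 to 0.32). Without DMSO/PEG replicate 3 the log2 fold changes were −0.077 for Hyou1, −0.024 for Herpud1 and 0.17 for Dnajb9.

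**Figure D2:**
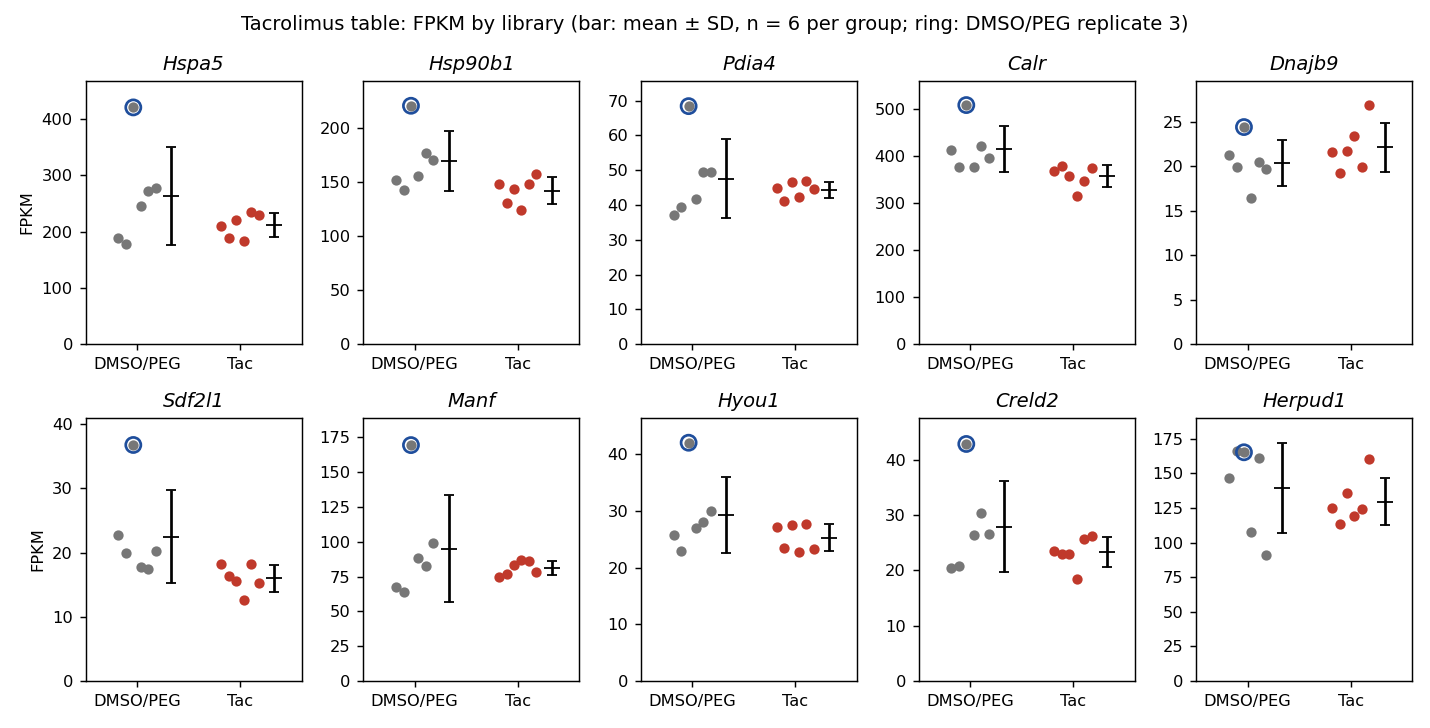
FPKM as deposited (vertical axes from 0) of the 10 genes in each library of the tacrolimus table, DMSO/PEG vehicle in grey and tacrolimus in red, with points in replicate order and bars at the mean ± SD (n = 6 per group). The ringed point is DMSO/PEG replicate 3, the highest vehicle library for every gene shown except Herpud1.

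Set side by side, the 2 drugs showed no called difference among the members. The change with cyclosporine A (rescaled) minus the change with tacrolimus had a median of −0.14 over the 10 members, with 8 of 10 below 0 (49.1% of all genes). None of the 10 was called by limma, where 1.64% of the 13391 genes tested in both tables were. At an unadjusted p under 0.05 there were 0 of 10 (15.9% of all genes). Voom called 0 and had 2 at that threshold, Hyou1 (−0.54) and Herpud1, among 2143 genes in all (2133 with limma). Without DMSO/PEG replicate 3 the same 2 genes reached it with limma, among 2260 genes in all. All 10 members were then below 0 with a median of −0.23, and 0 were called. Herpud1 had the lowest difference, −0.40 (interval −0.81 to 0.01), from −0.48 with cyclosporine A and −0.08 with tacrolimus. Hyou1 followed at −0.30 (interval −0.66 to 0.05). Hspa5 differed by −0.08 (interval −0.54 to 0.37). With 1 library left out the median ran from −0.24 to −0.052, the latter without cyclosporine A replicate 4, and scaling to the nuclear sum gave −0.057 with 7 of 10 below 0. Intervals of this width do not show that the drugs act alike. On deposited FPKM all 10 differences were called, with a median of −1.30, beside 74.9% of all genes called in that direction. Drug, vehicle and table cannot be told apart in these differences.

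**Figure D3:**
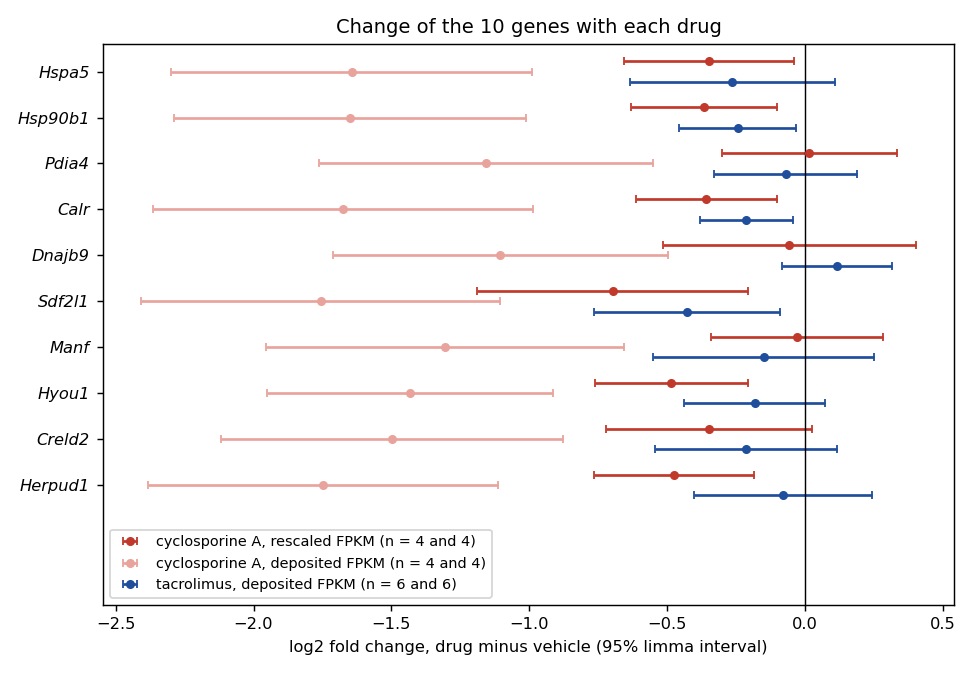
Log2 fold change (drug minus vehicle, horizontal axis) of the 10 genes with its 95% limma interval, for cyclosporine A on rescaled FPKM (red) and on deposited FPKM (pale red) and for tacrolimus (blue). The pale points all lie below −1, and the red and blue intervals of every gene overlap each other.

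Members also differed within the vehicle group of the tacrolimus table. DMSO/PEG replicate 3 was the highest of its 6 libraries for 9 of 10 members, where it was highest for 25.4% of all genes. Against the median of the other 5 libraries its members stood a median of 0.65 higher on the log2(FPKM + 1) scale, and 70% of them were more than 0.5 higher, as were 2.82% of all genes. The library stood apart in both directions, being also the lowest of its group for 26% of all genes, and the scaling holds its median over all genes near 0 (0.0013). Its depth of 36831816 fragments and mitochondrial share of 11.1% were inside the range of its group.

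Manf stood furthest out in that library, at 169 FPKM where the other 5 vehicle libraries read 63.6 to 98.8, a deviation of 1.03 (rank 69 of 15493 genes). Sdf2l1 deviated by 0.85, Hspa5 by 0.78 (420.5 FPKM against 178 to 278), Pdia4 by 0.70, Creld2 by 0.68, Hyou1 by 0.62 and Hsp90b1 by 0.50. Calr, at 0.36, and Dnajb9, at 0.28, were higher by less. Herpud1, at 0.17, read 165 FPKM and was not the highest of its group. The members thus differed among themselves in a library where most of them were high.

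Every other list had a median nearer 0 there. The 8 adipocyte markers came next to the members, with a median deviation of 0.28 and 1 of 8 highest in that library. Their median varied widely between the vehicle libraries, from −1.17 in replicate 6 to 0.57 in replicate 1. Ucp1 stood at 0.72 and was the highest of its group, and Lep was the lowest of these markers at −0.29. The cytosolic heat shock genes had a median deviation of 0.27 and were highest in that library in 9 of 13 cases, led by Hspb1 (0.73) and Bag3 (0.61). The translocon list stood at 0.22 and the sensors at −0.02, although Xbp1 itself read 0.47 higher. Ern1 and Atf6 deviated by −0.32 and −0.19. The 9 plasma and B cell markers tested, cells that also express ER chaperones strongly, had a median of −0.07, with 4 of 9 above 0 and a range from −0.61 (Jchain) to 0.45 (Cd79a). The 12 segment markers had a median of 0.066, with 3 highest and 3 lowest in that library. Proximal tubule markers went both ways, from −0.49 (Lrp2) to 0.40 (Slc22a6). Their part in the pattern was not tested.

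**Figure D4:**
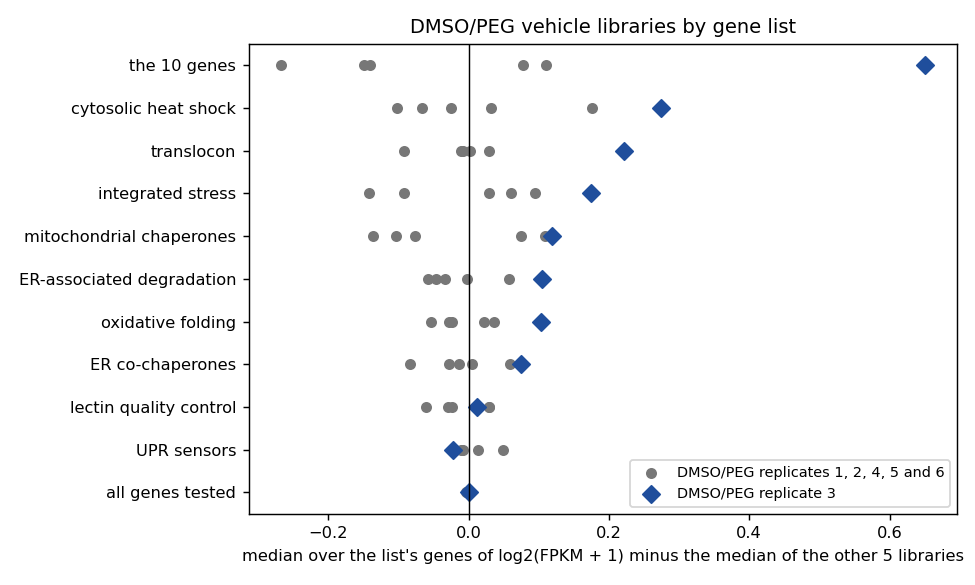
Median over the genes of each list of log2(FPKM + 1) in one DMSO/PEG vehicle library minus the median of the other 5 (horizontal axis), with replicate 3 as blue diamonds and the other replicates as grey points. Replicate 3 reaches 0.65 for the 10 genes, 0.27 for cytosolic heat shock genes and about 0 for all genes tested. The lists of adipocyte, plasma and B cell, and segment markers are not drawn.

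Within groups some members varied together and others did not. Over the 12 libraries of the tacrolimus table, on log2(FPKM + 1) centred on each group mean, Hspa5 had a Pearson r of 0.96 with Pdia4, 0.96 with Creld2, 0.94 with Hsp90b1, 0.91 with Hyou1 and 0.91 with Manf. It was 0.70 with Calr, 0.61 with Sdf2l1, 0.36 with Dnajb9 and 0.07 with Herpud1. These points share their libraries, and replicate 3 of the vehicle carries part of every value. Without it (11 libraries) Pdia4 stood at 0.91, Creld2 at 0.90, Hsp90b1 at 0.85, Hyou1 at 0.77 and Manf at 0.77, whereas Calr stood at 0.26 and Sdf2l1, Dnajb9 and Herpud1 were at −0.09, −0.07 and −0.31. In the 8 libraries of the cyclosporine A table Hsp90b1 (0.96), Pdia4 (0.93) and Creld2 (0.76) were again the closest to Hspa5, and Herpud1 (−0.01) the furthest. The median r of the 45 member pairs was 0.70 in the tacrolimus table, 0.25 there without replicate 3, and 0.47 in the cyclosporine A table.

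Pdia4, Hsp90b1 and Creld2 were therefore the members closest to Hspa5 in both tables, Pdia4 without an exact match in its promoter window. Of the genes outside the members, those with the highest r to Hspa5 in the tacrolimus table were Ccl4 (0.95), Hdac1l (0.95), Nosip (0.93), Hsph1 (0.93), Stip1 (0.92), Calml4 (0.92), Oscar (0.91), Ccl28 (0.90), Cebpg (0.90) and Vps4a (0.90), over 12 libraries. Without DMSO/PEG replicate 3 (11 libraries) their r lay between 0.75 (Ccl28) and 0.94 (Hsph1). Over the 8 libraries of the cyclosporine A table Hsph1, a cytosolic chaperone of the HSP110 family, stood at 0.83, Ccl4 at 0.80 and Oscar at 0.60. The other 7 lay between −0.37 (Vps4a) and 0.34 (Cebpg).

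**Figure D5:**
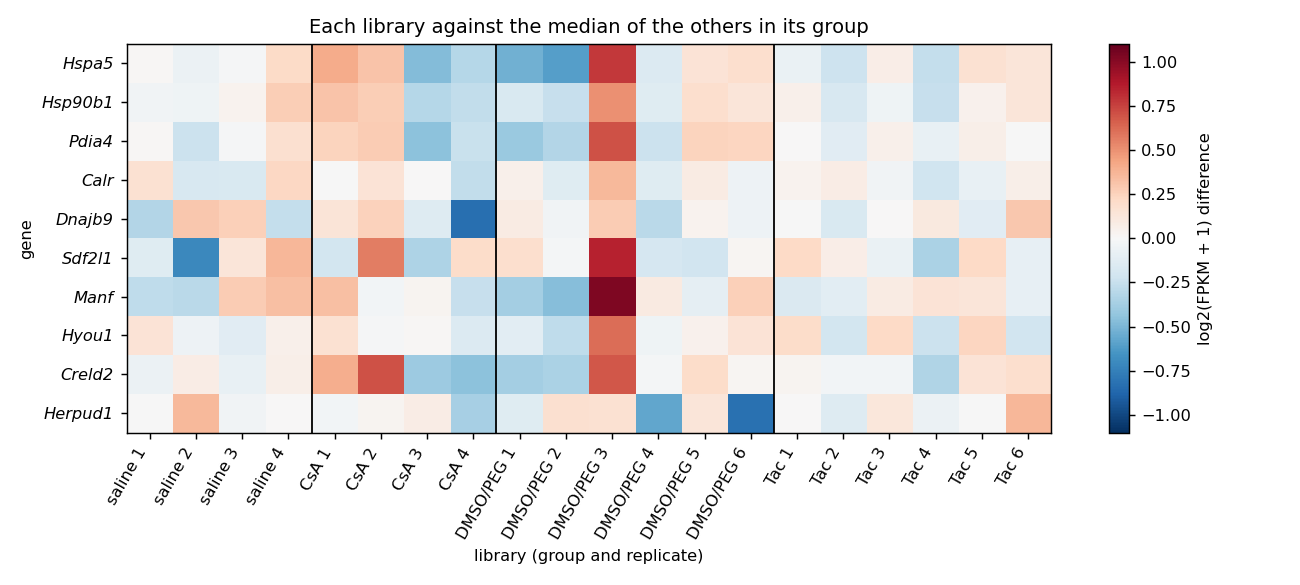
Each library (columns) against the median of the other libraries of its group, as a difference of log2(FPKM + 1), for the 10 genes (one line each), on rescaled FPKM for the saline and cyclosporine A libraries. DMSO/PEG replicate 3 is red for most genes, with the smallest deviations there for Herpud1 (0.17) and Dnajb9 (0.28).

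Sensors and transcription factors upstream of the members gave no call. In the tacrolimus comparison 0 of 10 sensors and processing genes were called, with 4 higher (3.7% of all genes) and 0 lower (4.87%) at an unadjusted p under 0.05, Eif2ak3 and Xbp1 among them. Eif2ak3 read 8.25 ± 0.468 FPKM (SD, n = 6) with vehicle and 9.58 ± 0.411 with tacrolimus, without overlap (0.19, limma adjusted p = 0.197), a pattern of 0.303% of genes in that direction. Xbp1 read 63.6 to 94.9 with vehicle and 80.5 to 114 with tacrolimus (0.29, limma adjusted p = 0.427), the opposite direction to 9 of the 10 members. Atf6 and Ern1 differed by 0.04 and 0.06. With cyclosporine A on rescaled FPKM, 0 of 9 tested were called, with 1 (Atf6) lower at an unadjusted p under 0.05 (8.83% of all genes). Atf6 (−0.28, limma adjusted p = 0.292), Xbp1 (−0.15), Eif2ak3 (−0.10) and Ern1 (0.06) had small values. On deposited FPKM all 9 were called lower, as were 80.9% of all genes, and their median of −0.93 was close to the −0.89 of all genes.

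The amino acid and ATF4 branch gave 1 call with cyclosporine A. Of 21 genes tested in the integrated stress list, 5 were below 0 on rescaled FPKM (49.9% of all genes) and the median was 0.19. On deposited FPKM 19 were below 0, with a median of −0.83 close to the −0.89 of all genes. On rescaled FPKM 3 were higher (7.32% of all genes) and 1 lower (Cth, −0.60; 8.83% of all genes) at an unadjusted p under 0.05. In all 1 was called, higher (0.327% of all genes). The called gene was Phgdh, the first enzyme of serine synthesis, at 2.41 ± 0.425 rescaled FPKM (SD, n = 4) with saline and 6.59 ± 2.12 with cyclosporine A (1.12, standard error 0.20, limma adjusted p = 0.0460), without overlap. The call rested on the settings: it was lost on deposited FPKM (0.083), with the replicate number as a block, with the mitochondrial covariate, without the filter, and in 7 of 8 fits that left out 1 library (0.97 to 1.30). With tacrolimus it differed by −0.11, and the difference between the drugs, 1.23, was called (adjusted p = 0.0187), as was that of Eif4ebp1, an inhibitor of cap-dependent translation (1.06, adjusted p = 0.0409). The Eif4ebp1 call was lost in 8 of 20 fits with 1 library left out and that of Phgdh in 3. On deposited FPKM neither difference was called (0.19 for Phgdh and 0.077 for Eif4ebp1). Atf4 (0.21, limma adjusted p = 0.348), Ddit3 (0.28, 0.530 on the same test) and Trib3 (0.18, 0.485) were not called. With tacrolimus 0 of 22 were called and the median was 0.02.

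Lectin, co-chaperone and degradation genes lay mostly below 0 with cyclosporine A, oxidative folding genes did not, and none of the genes in these lists was called on rescaled FPKM or with tacrolimus. Below 0 on rescaled FPKM, where 49.9% of all genes lay, were 8 of 8 lectin and glycan quality control genes (median −0.24), 11 of 13 co-chaperones (−0.24), 15 of 17 degradation genes (−0.22) and 8 of 8 mitochondrial chaperones (−0.22). Cytosolic heat shock genes had 10 of 12 below 0 (−0.13), translocon genes 9 of 15 (−0.06) and oxidative folding genes 9 of 18 (0.003). All these medians lay closer to 0 than that of the members, −0.35. At an unadjusted p under 0.05 with cyclosporine A, limma gave 2 lectin genes, 4 co-chaperones, 4 degradation genes, 2 mitochondrial chaperones, 1 heat shock gene, 3 oxidative folding genes and 0 translocon genes, all lower, a direction and threshold that 8.83% of all genes met. With tacrolimus the medians of the same lists lay between −0.05 (translocon) and 0.05 (degradation), against −0.20 for the members, and on deposited FPKM with cyclosporine A between −1.14 and −1.48, against −0.89 for all genes. That gap does not by itself show a larger fall. Oxidative folding and translocon genes, at 0.003 and −0.06 on rescaled FPKM, read −1.14 and −1.26 as deposited. Hspa8 and Hsp90aa1 each have 2 identifiers, and their counts are uncertain where near-identical copies share reads.

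Markers of other cells and segments moved beside these comparisons. Of the 12 segment markers, 6 were below 0 with cyclosporine A on rescaled FPKM (49.9% of all genes) and 6 above, with a median of 0.026. At an unadjusted p under 0.05 limma gave 4 lower (8.83% of all genes) and 1 higher (7.32%). The thick ascending limb gene Umod was called lower (−1.36, limma adjusted p = 0.0491) and Slc5a2 higher (0.94, limma adjusted p = 0.0382). With the mitochondrial share as a covariate Umod turned to 0.059. Both calls were fragile, Umod being lost in 8 of 8 fits with 1 library left out (−1.54 to −1.17) and Slc5a2 in 7 of 8 (0.84 to 1.14). The summed level of the 12 segment markers was 585 to 878 rescaled FPKM with saline and 440.4 to 623 with cyclosporine A, and none was at 0 in every library. Markers with the highest FPKM weigh most in such a sum, so it does not stand for all 12. The difference between the drugs was called for Umod (−1.16), Slc5a2 (0.88), Slc12a1 (−0.83) and the adipocyte gene Retn (2.56), of which Umod was lost in 15, Slc12a1 in 11 and Slc5a2 in 5 of 20 fits with 1 library left out. On deposited FPKM the Slc5a2 difference was 0.40 and was not called. With tacrolimus Slc12a3 of the distal convoluted tubule (−1.24, limma adjusted p = 0.000159) and the brown adipocyte gene Ucp1 (−3.33, limma adjusted p = 0.000844) fell. Of the 12 segment markers 5 were below 0 there (50.2% of all genes) and 7 above, with a median of 0.016. The 8 adipocyte markers were all below 0 there, and their sum was 94.5 to 318 FPKM with vehicle and 53.6 to 173 with tacrolimus, with 0 of 8 at 0 in every library. The sum of 9 plasma and B cell markers was 6.57 to 17.9 FPKM with vehicle and 8.37 to 14.9 with tacrolimus, and 2.74 to 3.98 with saline and 3.53 to 4.84 rescaled FPKM with cyclosporine A. Their part in the members' values was not tested.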

How the data were processed

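Total RNA from whole kidneys was sequenced from NEBNext libraries, per the labels' protocols. The submitters' processing notes name HISAT2 and rn6; the counting program, strand setting and annotation release are not given in the sources used here, so overlapping antisense genes cannot be told apart. The authors deposited FPKM in 2 tables, 1 per drug, and no column of another sample was present (0). Fragments behind the values were recovered from their steps: 74.6% of the cyclosporine A values came out whole (within 0.01 of a fragment) with the listed gene length and 4441 of the 4449 other genes with a shorter one, and all tacrolimus values (100%) did. The deposited cyclosporine A FPKM are relative to all assigned fragments, mitochondrial ones included, and the tacrolimus FPKM carry size factors.

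Rescaled FPKM were the deposited values divided by median-of-ratios factors over nuclear genes. Tests were run with limma 3.58.1 in R 4.3.3 on log2(value + 1), with eBayes moderation along a trend in expression, p-values being adjusted by Benjamini-Hochberg over all genes tested. A pseudocount of 1 understates changes of low genes. A gene was tested if the equivalent of 10 fragments was reached in as many libraries as the smaller group and 15 in total. The difference between the drugs used each fit's standard error with Satterthwaite degrees of freedom. Voom ran as an alternative on the recovered fragments. Each deviation of a library is from the median of the others in its group. No 2 libraries of a group agreed within sampling noise.

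The members, the gene lists and the rescaling were chosen with earlier results of these data known. Named genes are the 10 members with every library's value, 7 sensor and stress genes, up to 4 called genes of each other list with the smallest adjusted p, and the 10 genes most correlated with Hspa5; others named beside a count, and the genes named for DMSO/PEG replicate 3, were chosen after their values were seen. Of the list symbols, Pdia2 and Srprb were not matched. The deposited tables differ in the listed length of Dnajb9, 1926 bases for cyclosporine A and 2334 for tacrolimus, and Hsp90b1 was counted over 2984 of 3195 bases in the former. Promoter windows are RefSeq's on GRCr8, another build than rn6. Values of some single marker genes are not reported here.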

Additional observations from a re-analysis of the deposited data

Results flagged for a closer look

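In 6 cases 1 library stood apart from the rest of its group by Dixon's gap ratio, which by chance exceeds its limit in about 1 in 20 groups. Among all genes tested the limit was exceeded in 5.24% of saline groups, 6.91% of cyclosporine A groups, 7.58% of DMSO/PEG groups and 11.7% of tacrolimus groups. DMSO/PEG replicate 3 was the high library for Sdf2l1 (gap ratio 0.7219, 36.7 FPKM against 22.8 for the nearest), Manf (0.6673, 169 against 98.8), Calr (0.6571, 509 against 423) and Hyou1 (0.6277, 42.0 against 30.0). This library exceeded the limit upwards for 2.22% of all genes. Hspa5, Pdia4, Creld2, Hsp90b1 and Dnajb9 were also highest there without passing the limit.

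In the saline group Herpud1 was high in replicate 2 (gap ratio 0.9039, 35.1 rescaled FPKM against 27.4) and Hsp90b1 in replicate 4 (0.8387, 37.0 against 31.3). No member passed the limit in the cyclosporine A or tacrolimus groups.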

How the results depend on the processing

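No member was called on rescaled FPKM or with tacrolimus under any alternative except voom, which called 1 with cyclosporine A (Hyou1). On FPKM as deposited 10 were called with cyclosporine A (median −1.57) and 10 in the difference between the drugs (median −1.30). That scale moves the median of all genes to −0.89 in both, and the signs of these values turned with it: Pdia4 (−1.16, and −1.09 in the difference), Manf in the difference (−1.16), Ern1 (−0.60), Atf4 (−1.097), Ddit3 (−0.94), Trib3 (−0.086), Eif4ebp1 (−0.0011) and Slc12a3 (−0.89) with cyclosporine A, and Atf4 (−1.12), Ddit3 (−0.81) and Trib3 (−0.24) in the difference. The mitochondrial share as a covariate moved the cyclosporine A median to −0.10, with Calr at 0.079, Dnajb9 at 0.065, Manf at 0.077 and Umod at 0.059. Scaling to the nuclear sum gave Dnajb9 0.013 and Manf 0.059, and in the difference Hspa5 0.0026 and Ern1 0.039. Voom gave Dnajb9 0.12 with cyclosporine A, Pdia4 0.0068 and Eif4ebp1 0.034 with tacrolimus, and in the difference Pdia4 −0.0019 and Ern1 0.11. A pseudocount of 0.1 gave Ern1 0.0083 in the difference. The cause of the reversals outside the deposited scale was not tested.

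Leaving out 1 library at a time, the members' median ran from −0.42 to −0.29 with cyclosporine A, −0.25 to −0.082 with tacrolimus and −0.24 to −0.052 in the difference, with 0 members called. Signs changed for Pdia4 (−0.058 to 0.11), Manf (−0.13 to 0.057), Dnajb9 (−0.17 to 0.15) and Ern1 (−0.045 to 0.18) with cyclosporine A. With tacrolimus they changed for Pdia4 (−0.14 to 0.037) and Manf (−0.25 to 0.032), both without DMSO/PEG replicate 3, and for Atf4 (−0.031 to 0.065) and Ern1 (−0.0040 to 0.14). In the difference they changed for Hspa5 (−0.23 to 0.017), Dnajb9 (−0.28 to 0.034), Pdia4 (−0.023 to 0.18), Manf (−0.061 to 0.22), Ern1 (−0.10 to 0.12) and Trib3 (−0.054 to 0.14).

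Over all genes the cyclosporine A count was 82. It was 10911 on deposited FPKM, 281 with voom, 1 without the filter, and 1 to 136 with a library left out. With the covariate limma called 0, with 416 genes at an unadjusted p under 0.05. The tacrolimus count was 47, and 121 with voom. The difference count was 220, and 10068 on deposited FPKM, 129 without the filter and 27 to 268 with a library left out. With the replicate number as a block 0 members were called in any comparison, and 6, 44 and 184 genes in all. Same-numbered libraries correlated between −0.15 and 0.21 and shared only a number. As few as 2905822 nuclear fragments lie behind a cyclosporine A library, and depth limits what its low genes can show.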
